A study of Mus musculus with 9 samples.

Results

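The genes described here make or look after the protein-synthesis machinery of mitochondria. They were chosen by symbol from the count tables. Symbols of Mrpl or Mrps followed by a number are named for the large and small subunits of the mitochondrial ribosome. Those of 1 capital letter followed by ars2 are mitochondrial tRNA synthetases. Lrpprc and Slirp, a protein pair that stabilizes mitochondrial mRNAs, were added, and symbols ending in -ps were left out. Roles follow the symbols and were not checked for each product. This gave 96 of 24421 symbols, namely 48 large-subunit genes, 29 small-subunit genes, 17 tRNA synthetases and the pair. The rule uses names only, but the set was proposed after Lrpprc had been seen lower in ABTAA and in VEGF Trap libraries, and Lars2 lower in VEGF Trap libraries, than in Fc libraries. In those 2 contrasts the members' values are therefore descriptions, without p-values, and their counts past the threshold are printed beside the share of all genes and support nothing. Members are tested in the contrast of ABTAA with VEGF Trap, and p-values of genes outside the set are printed in all 3 contrasts. The lists of genes outside the set were also drawn up with earlier results of these data known. Their p-values against Fc are therefore descriptions too.

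The samples came from a mouse model of choroidal neovascularization, in which a laser burn breaks the Bruch membrane and vessels grow in from the choroid. Male mice of 8 weeks, whose strain is not given in the sources used here, were lasered at 4 spots in each eye and given 5 µg of 1 reagent into the vitreous. One reagent was ABTAA, an antibody that captures angiopoietin 2 and switches on Tie2, a receptor of endothelial cells. Another was VEGF Trap, which soaks up VEGF with receptor domains joined to Fc, and the control was Fc, the constant part of an antibody. Pieces of the RPE-choroidal complex (retinal pigment epithelium with the choroid under it) were taken by laser capture, and the 3 prime ends of its transcripts were sequenced, with 3 libraries per group. Every group carries the laser injury, and unburned eyes were not analysed here. Total counts ran from 6335805 to 14439835 per library. Groups follow the sample titles, although the value columns of the Fc tables are headed as knockout controls. Which animals gave which library is not stated, so p-values measure the spread between these libraries, which may be partly technical.

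Mitochondria keep a small genome of their own and translate its messages on their own ribosomes, which are built from mitochondrial rRNA and nuclear-encoded proteins. Separate tRNA synthetases load the mitochondrial tRNAs, and the complex of Lrpprc and Slirp protects mitochondrial mRNAs from decay and helps their polyadenylation. The products are core subunits of the respiratory chain, on which the pigment epithelium depends heavily. Messages encoded by the mitochondrial genome were not found among the counted symbols under the names searched, so they were not analysed here.

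Because Lrpprc and Slirp were lower together, and Lars2 was the synthetase farthest from zero, their promoters are shown first (RefSeq, GRCm38.p6, read 5′ to 3′ on the gene's strand, from 250 bases before to 50 after the annotated start). Capitals mark 2 of the motifs searched on both strands, the ETS core CCGGAAG and the YY1 element. The windows are chr17:84790737-84791036 on the minus strand for Lrpprc, chr12:87443646-87443945 on the plus strand for Slirp and chr9:123366677-123366976 on the plus strand for Lars2.
Lrpprc: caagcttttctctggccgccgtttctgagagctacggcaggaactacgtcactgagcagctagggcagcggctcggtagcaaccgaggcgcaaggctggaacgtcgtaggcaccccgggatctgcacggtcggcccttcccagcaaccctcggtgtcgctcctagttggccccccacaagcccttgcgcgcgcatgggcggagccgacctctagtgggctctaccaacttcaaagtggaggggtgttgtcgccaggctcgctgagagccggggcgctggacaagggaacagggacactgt
Slirp: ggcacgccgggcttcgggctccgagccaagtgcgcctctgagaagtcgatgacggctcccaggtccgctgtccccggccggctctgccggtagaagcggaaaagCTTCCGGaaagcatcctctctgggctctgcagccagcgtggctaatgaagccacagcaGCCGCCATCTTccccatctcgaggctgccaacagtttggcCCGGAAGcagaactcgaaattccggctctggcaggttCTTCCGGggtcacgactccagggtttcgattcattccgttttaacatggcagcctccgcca
Lars2: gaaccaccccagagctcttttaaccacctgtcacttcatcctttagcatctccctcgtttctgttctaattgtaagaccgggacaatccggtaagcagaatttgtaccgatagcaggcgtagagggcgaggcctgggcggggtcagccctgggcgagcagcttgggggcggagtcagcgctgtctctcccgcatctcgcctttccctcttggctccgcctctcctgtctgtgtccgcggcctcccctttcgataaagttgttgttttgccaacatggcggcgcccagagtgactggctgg
The Slirp window held 3 ETS cores, at bases 105 to 111, 203 to 209 and 240 to 246, and 1 YY1 element at bases 163 to 173. The Lrpprc and Lars2 windows held neither, nor the NRF1 element or the ERR element TCAAGGTCA.

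Across the set, 84 of 96 members had a promoter window in the RefSeq table. An ETS core stood in 30 of them (35.7%), against 12.8% of 17224 genes of the count tables that have a window. The NRF1 element stood in 15 members (17.9%, against 7.19%) and the YY1 element in 7 (8.33%, against 1.07%), while the ERR element was found in 0 (against 0.377%). NRF1, YY1 and the ETS factor GABP are textbook activators of nuclear genes for mitochondria. Among roles, the NRF1 element stood in 10 of 42 large-subunit windows, 3 of 26 small-subunit windows and 2 of 14 synthetase windows. The 17224 genes include some that did not pass the count filter described below, whereas all 96 members passed it. The shares are therefore not compared like with like. A match of letters is a description and not a site, and variants of the YY1 string were not counted.

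The pigment epithelium origin of the tissue was visible in the libraries, with 9 of 10 pigment epithelium markers above 1 CPM (counts scaled to library size, with TMM factors) on average in every group. The tenth, Best1, a chloride channel gene, averaged below 1 CPM. Their summed level was 2222 to 3055 CPM in ABTAA libraries, 2515 to 2993 CPM in VEGF Trap libraries and 1882 to 3063 CPM in Fc libraries. Some markers of other cell types differed between groups. Summed skeletal muscle markers stood at 253 to 535 CPM in ABTAA and 247 to 437 CPM in VEGF Trap, against 121 to 185 CPM in Fc, and of 14 markers 8 passed the threshold in ABTAA and 3 in VEGF Trap, with none at 0 in a whole group. Summed endothelial markers (12 genes) stood at 2812 to 2963 CPM in ABTAA and 2153 to 2375 CPM in VEGF Trap, against 1842 to 2341 CPM in Fc, with 5 past the threshold in ABTAA and 0 in VEGF Trap. Summed macrophage markers (10 genes) stood at 1368 to 1653 CPM in ABTAA and 1698 to 1986 CPM in VEGF Trap, against 1761 to 1936 CPM in Fc, with 2 past it in ABTAA and 0 in VEGF Trap. Summed photoreceptor markers (11 genes, 0 past the threshold) stood at 62.9 to 112 CPM in ABTAA and 40.5 to 202 CPM in VEGF Trap, against 66.7 to 98.8 CPM in Fc, and summed lens markers (8 genes, 0 past it) at 14.6 to 23.7 CPM in ABTAA and 14.3 to 63.5 CPM in VEGF Trap, against 12.2 to 20.1 CPM in Fc. VEGF Trap 1 was the high library in both lists. The part of these cell types in the results was not tested. A fit with the muscle level as a covariate was run. It cannot separate that level from treatment, because the muscle sums of treated and Fc libraries did not overlap.

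Lrpprc, the large RNA-binding protein of the pair, was lower in the libraries of both reagents than in those of Fc. It stood at 17.7, 19.2 and 30.8 CPM in ABTAA libraries and at 17.6, 22.9 and 20.0 CPM in VEGF Trap libraries, against 49.9, 54.3 and 42.0 CPM in Fc libraries. Every treated library lay below every Fc library, and ABTAA 3 came closest to them. The means were 22.6 ± 7.18 CPM in ABTAA, 20.1 ± 2.64 CPM in VEGF Trap and 48.7 ± 6.24 CPM in Fc (SD, n = 3 each). The fitted log2 fold changes were -1.13 ± 0.19 for ABTAA against Fc and -1.27 ± 0.19 for VEGF Trap against Fc (SE, edgeR), which correspond to levels 2.18-fold and 2.42-fold lower. These values rested on 144 to 328 counts per treated library and 534 to 640 counts per Fc library. In tissue pieces, fewer cells of a type and less RNA per cell cannot be told apart. The gene lies on chromosome 17 from 84705247 to 84790789 (mm10, minus strand, GENCODE M21), where the annotation shows no exon of another gene on the opposite strand.

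**Figure D1:**
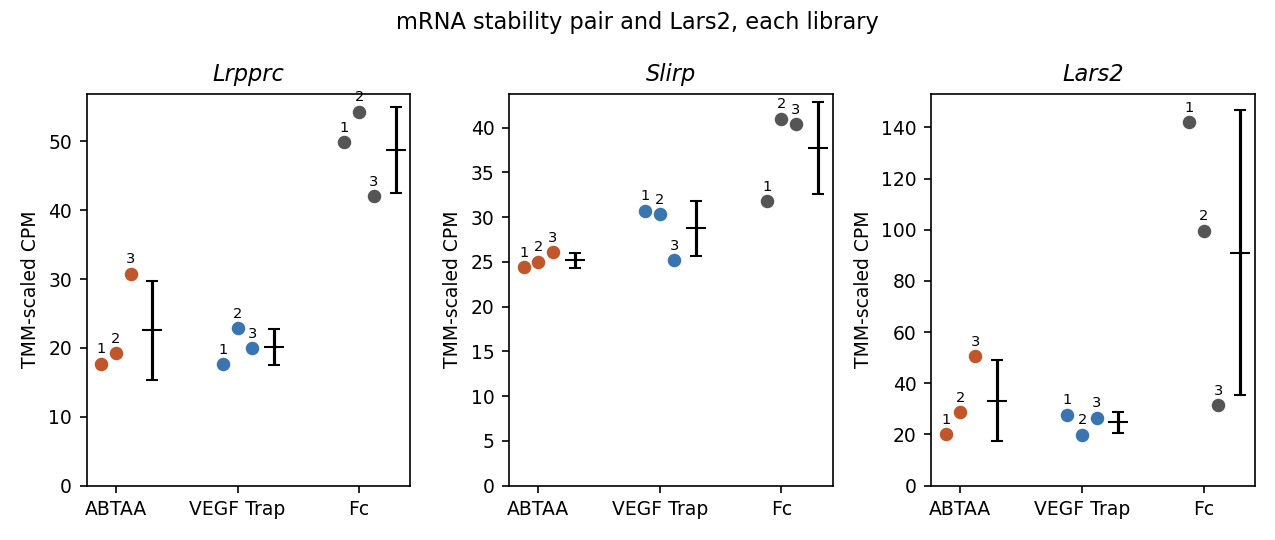
Level of Lrpprc, Slirp and Lars2 in each library (y axis, TMM-scaled CPM; points, libraries, numbered by replicate; black marks with error bars, mean and SD of 3 libraries). For Lrpprc and Slirp all treated libraries lie below all Fc libraries, while Lars2 is spread widely within Fc, with Fc 3 at 31.5 CPM.

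Slirp, the small partner that binds Lrpprc and is stabilized with it, was lower in the same libraries by less. Its level was 24.4, 25 and 26.1 CPM in ABTAA and 30.7, 30.3 and 25.2 CPM in VEGF Trap, against 31.8, 41.0 and 40.4 CPM in Fc. The ranges did not overlap, but Fc 1 lay just above the highest VEGF Trap library. The log2 fold changes were -0.59 ± 0.15 in ABTAA and -0.39 ± 0.14 in VEGF Trap against Fc. Slirp lies on chromosome 12 from 87443896 to 87452206 and its 3 prime end overlaps Snw1, a splicing factor gene on the other strand. Exons of Alkbh1, also on the other strand, overlap Slirp as well. The strand setting of the counting is not given, so reads of Slirp and these 2 genes could be mixed. Alkbh1 stood at log2 0.50 ± 0.26 in ABTAA (adjusted p = 0.353, edgeR) and -0.04 ± 0.26 in VEGF Trap (adjusted p = 0.965, edgeR) against Fc. Snw1 itself stood at 192, 146 and 164 CPM in ABTAA and 203, 184 and 158 CPM in VEGF Trap, against 225, 195 and 204 CPM in Fc (log2 -0.31 ± 0.13, adjusted p = 0.222, and -0.19 ± 0.13, adjusted p = 0.508, edgeR).

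Summed, the pair held 42.0 to 56.9 CPM in ABTAA and 45.2 to 53.2 CPM in VEGF Trap, against 81.7 to 95.3 CPM in Fc. The large-subunit genes held 994 to 1078 CPM in ABTAA and 1019 to 1083 CPM in VEGF Trap, against 1073 to 1107 CPM in Fc, and the ABTAA and VEGF Trap ranges each overlapped that of Fc. The small-subunit genes held 897 to 937 CPM in ABTAA and 922 to 975 CPM in VEGF Trap, against 913 to 933 CPM in Fc. The sums of both subunits thus overlapped between treated and Fc libraries, and the sum of the pair did not. Lrpprc is part of the pair's sum and was known to be lower when the set was proposed, so nothing is read from this.

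**Figure D2:**
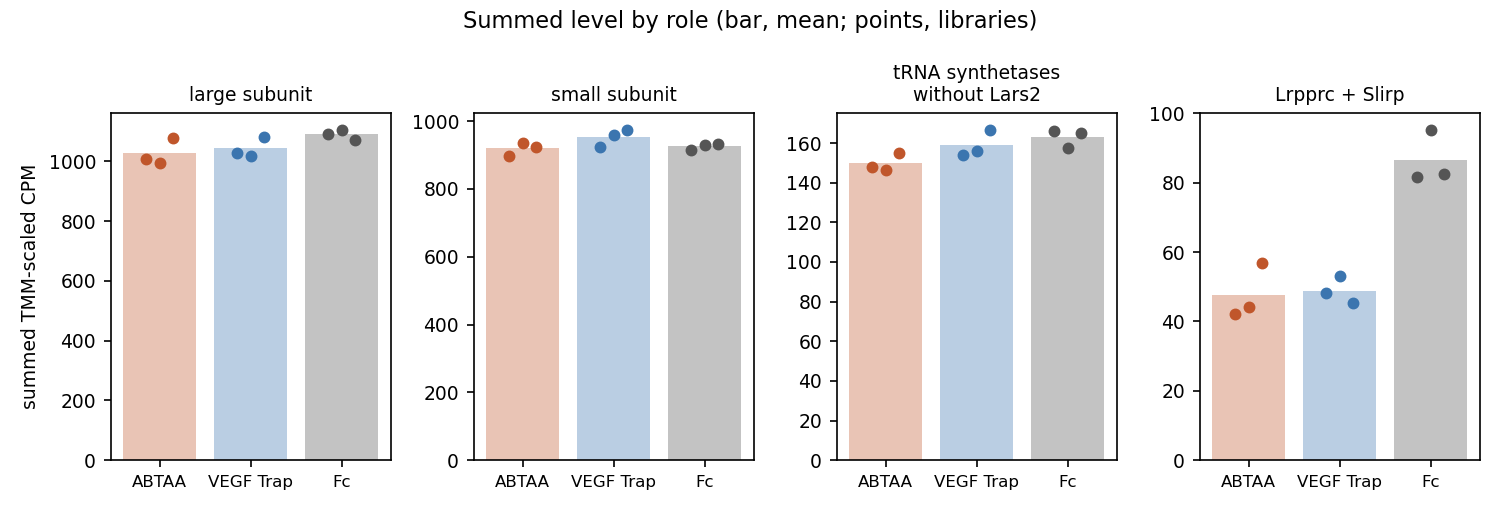
Summed TMM-scaled CPM of each role, the synthetases without Lars2 (y axis; bars, mean of 3 libraries; points, libraries). The sums of both ribosomal subunits lie close together in the 3 groups, and the sum of Lrpprc and Slirp is 42.0 to 56.9 CPM in treated libraries against 81.7 to 95.3 CPM in Fc.

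Lars2, which loads leucine onto mitochondrial tRNA, had the lowest fold change of the set against Fc, yet its Fc libraries disagreed among themselves. It stood at 20.0, 28.8 and 50.7 CPM in ABTAA and at 27.7, 19.9 and 26.6 CPM in VEGF Trap, against 142, 99.6 and 31.5 CPM in Fc. Fc 1 and Fc 2 were high, whereas Fc 3 lay below ABTAA 3 and just above VEGF Trap 1. Means were 33.2 ± 15.8 CPM in ABTAA, 24.7 ± 4.21 CPM in VEGF Trap and 91.2 ± 56.0 CPM in Fc (SD, n = 3 each). The log2 fold changes were -1.47 ± 0.40 in ABTAA and -1.88 ± 0.41 in VEGF Trap, with 1 library deciding much of their size. Without Fc 1 they were -1.0 and -1.41, without Fc 3 they were -1.89 and -2.3, and without ABTAA 3 the ABTAA value was -1.90. Its within-group coefficient of variation averaged 42.0%, against a median of 14.1% over the members. The ribosomal RNA precursor Rn45s, which took the largest share of counts, held 11.7% to 13.1% of counts in ABTAA and 12.9% to 15.8% in VEGF Trap, against 11.8%, 10.8% and 10.1% in Fc 1, 2 and 3. Its difference from Fc did not pass (adjusted p = 0.327 in ABTAA and 0.0577 in VEGF Trap, edgeR). Across groups Rn45s was thus high where Lars2 was low, whereas within Fc both were highest in Fc 1 and lowest in Fc 3, and its part in the Lars2 values was not tested. Lars2 lies on chromosome 9 from 123366927 to 123462666.

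The other 16 mitochondrial synthetases differed far less in sum. Their summed level was 146 to 155 CPM in ABTAA and 154 to 167 CPM in VEGF Trap, against 158 to 166 CPM in Fc, so ABTAA lay below Fc by a small margin and VEGF Trap overlapped it. Over all 17, 10 had a log2 fold change below 0 in ABTAA and 10 in VEGF Trap. Cars2, for cysteine, stood at 7.54, 10.6 and 7.35 CPM in ABTAA and 9.70, 10.3 and 11 CPM in VEGF Trap, against 6.63, 6.70 and 8.40 CPM in Fc. Its log2 fold changes were 0.24 ± 0.23 and 0.50 ± 0.22, and only the VEGF Trap libraries lay wholly above those of Fc. Exons of Cars2 overlap Naxd on the other strand, and its 3 prime end matches a Naxd transcript, so its count is uncertain. Aars2, for alanine, had only 2 to 20 counts per library, at 1.55, 1.98 and 2.35 CPM in ABTAA and 0.497, 1.39 and 0.277 CPM in VEGF Trap, against 1.78, 0.594 and 0.916 CPM in Fc. The VEGF Trap 3 value stood under the floor of 3 counts, which is 0.416 CPM in that library. Mars2, for methionine, was the member with the lowest level, at 4 to 20 counts per library. Pars2, for proline, had 0 counts in Fc 3 and 94 and 80 in Fc 1 and Fc 2, and all its counts were even numbers. Its within-group coefficient of variation averaged 67.3%, the highest of the set.

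The 77 ribosomal protein genes had 0 calls in both contrasts with Fc, which is near the share of all genes called (1.40% in ABTAA and 1.02% in VEGF Trap). Their median log2 fold change was -0.07 in ABTAA and -0.06 in VEGF Trap, beside 0.00 over all 14054 genes tested. In ABTAA 47 of 77 lay below 0, and in VEGF Trap 42 of 77. Among large-subunit genes, Mrpl27 had the lowest value in ABTAA (4.85, 3.27 and 6.26 CPM, against 9.06, 6.70 and 8.40 CPM in Fc, log2 -0.77 ± 0.30). Mrpl39 was at -0.67 ± 0.40 in ABTAA and -0.64 ± 0.40 in VEGF Trap, at low levels of 1.96 to 5.35 CPM in all libraries. Stretches near-identical to the 3 prime end of Mrpl27 stand in transcripts of 39 other genes, so its count is uncertain.

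Mrpl11, which helps form the stalk base of the large subunit, stood at 14.5, 14.2 and 17.4 CPM in ABTAA and 15.8, 18.3 and 15.1 CPM in VEGF Trap, against 22.1, 25.4 and 21.5 CPM in Fc. Its log2 fold changes were -0.59 ± 0.16 and -0.48 ± 0.16. Mrpl3 went the other way, at 28.1, 26.3 and 25.2 CPM in ABTAA and 26.7, 24.2 and 32.0 CPM in VEGF Trap, against 19.1, 15.9 and 21.8 CPM in Fc. It had the highest value among the large-subunit genes in both contrasts, 0.49 ± 0.16 and 0.54 ± 0.16. Mrpl28 was likewise above Fc in every treated library (0.34 ± 0.14 and 0.46 ± 0.14). Large-subunit genes therefore lay on both sides of Fc. An exon of Mrpl3 overlaps a transcript on the other strand, and none of Mrpl11 or Mrpl28 does.

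**Figure D3:**
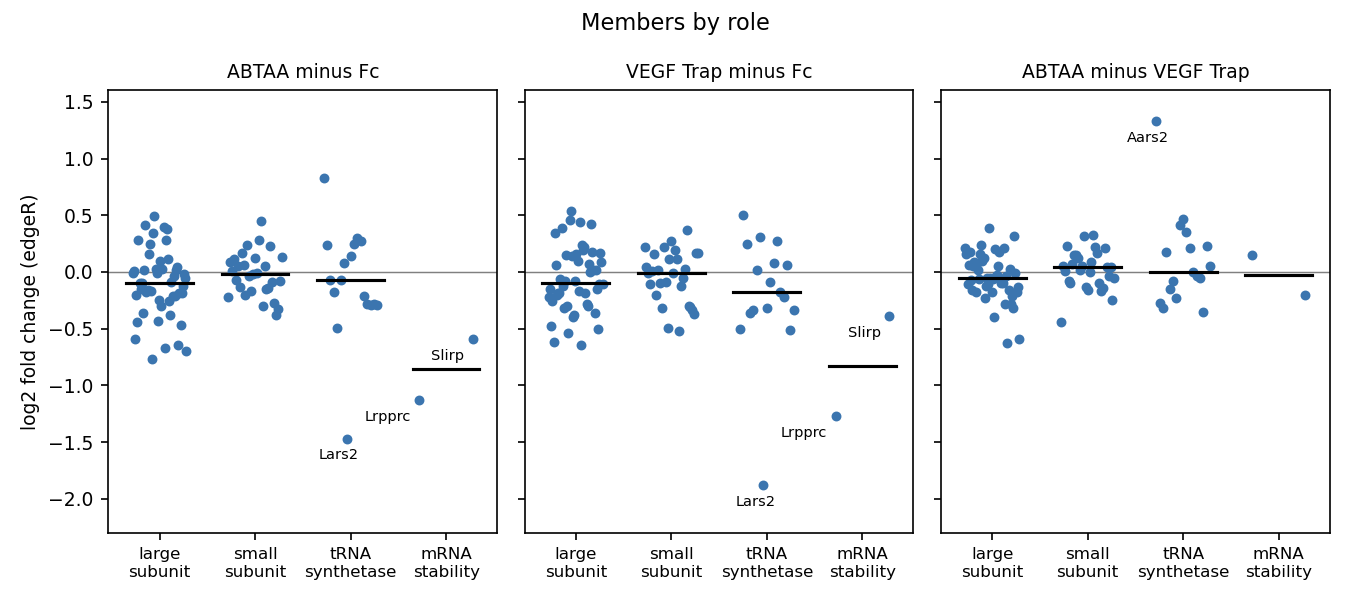
Fitted log2 fold change of each of the 96 members (y axis; points, genes; black lines, median of the role) in the 3 contrasts. Ribosomal subunit genes lie around 0, Lrpprc (-1.13 and -1.27) and Lars2 (-1.47 and -1.88) lie far below, and in ABTAA minus VEGF Trap Aars2 stands at 1.33.

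The small subunit spread over a narrower range than the large subunit or the synthetases. Its members ran from -0.38 (Mrps5) to 0.45 (Mrps27) in ABTAA and from -0.52 (Mrps28) to 0.37 (Mrps34) in VEGF Trap against Fc. Mrps23 had 1502 to 4403 counts per library, so counting error was small, and stood at 267, 272 and 235 CPM in ABTAA and 260, 307 and 282 CPM in VEGF Trap, against 262, 266 and 257 CPM in Fc. Mrps18a, Mrps18b and Mrps18c, paralogs related to a single bacterial ribosomal protein, showed no common direction. Their log2 fold changes were 0.17 ± 0.14, 0.06 ± 0.22 and -0.20 ± 0.27 in ABTAA, and 0.02 ± 0.14, -0.10 ± 0.22 and -0.32 ± 0.26 in VEGF Trap. The neighbours Mrpl46 and Mrps11, which overlap on opposite strands of chromosome 7, stood at -0.04 ± 0.23 and 0.09 ± 0.29 in ABTAA and at 0.00 ± 0.23 and 0.04 ± 0.29 in VEGF Trap.

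Further ribosomal protein genes lay wholly below Fc in both contrasts. Mrpl13 stood at 7.95, 6.74 and 7.20 CPM in ABTAA and 6.13, 6.13 and 7.21 CPM in VEGF Trap, against 9.81, 9.76 and 10.2 CPM in Fc (log2 -0.44 ± 0.21 and -0.62 ± 0.21). Mrpl33 stood at 29.3, 34.6 and 40.5 CPM in ABTAA and 35.6, 30.5 and 41.9 CPM in VEGF Trap, against 44.0, 51.8 and 44.3 CPM in Fc (-0.43 ± 0.16 and -0.38 ± 0.16). Mrpl12, which also binds the mitochondrial RNA polymerase, stood at 69.7, 61.8 and 70.1 CPM in ABTAA and 63.3, 64.6 and 66.0 CPM in VEGF Trap, against 80.1, 80.1 and 71.8 CPM in Fc (-0.20 ± 0.12 and -0.26 ± 0.12). In the small subunit, Mrps34 lay wholly above Fc, at 47.8, 41.7 and 48.3 CPM in ABTAA and 49.6, 47.7 and 54.6 CPM in VEGF Trap, against 40.9, 39.4 and 36.7 CPM in Fc (0.23 ± 0.13 and 0.37 ± 0.13). Exons of Mrps34 overlap Mapk8ip3 on the other strand. Mrps6 lay below Fc in VEGF Trap (-0.37 ± 0.16), and in ABTAA (-0.33 ± 0.16) the library ABTAA 3, at 68.8 CPM, lay above Fc 1, at 67.1 CPM.

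**Figure D4:**
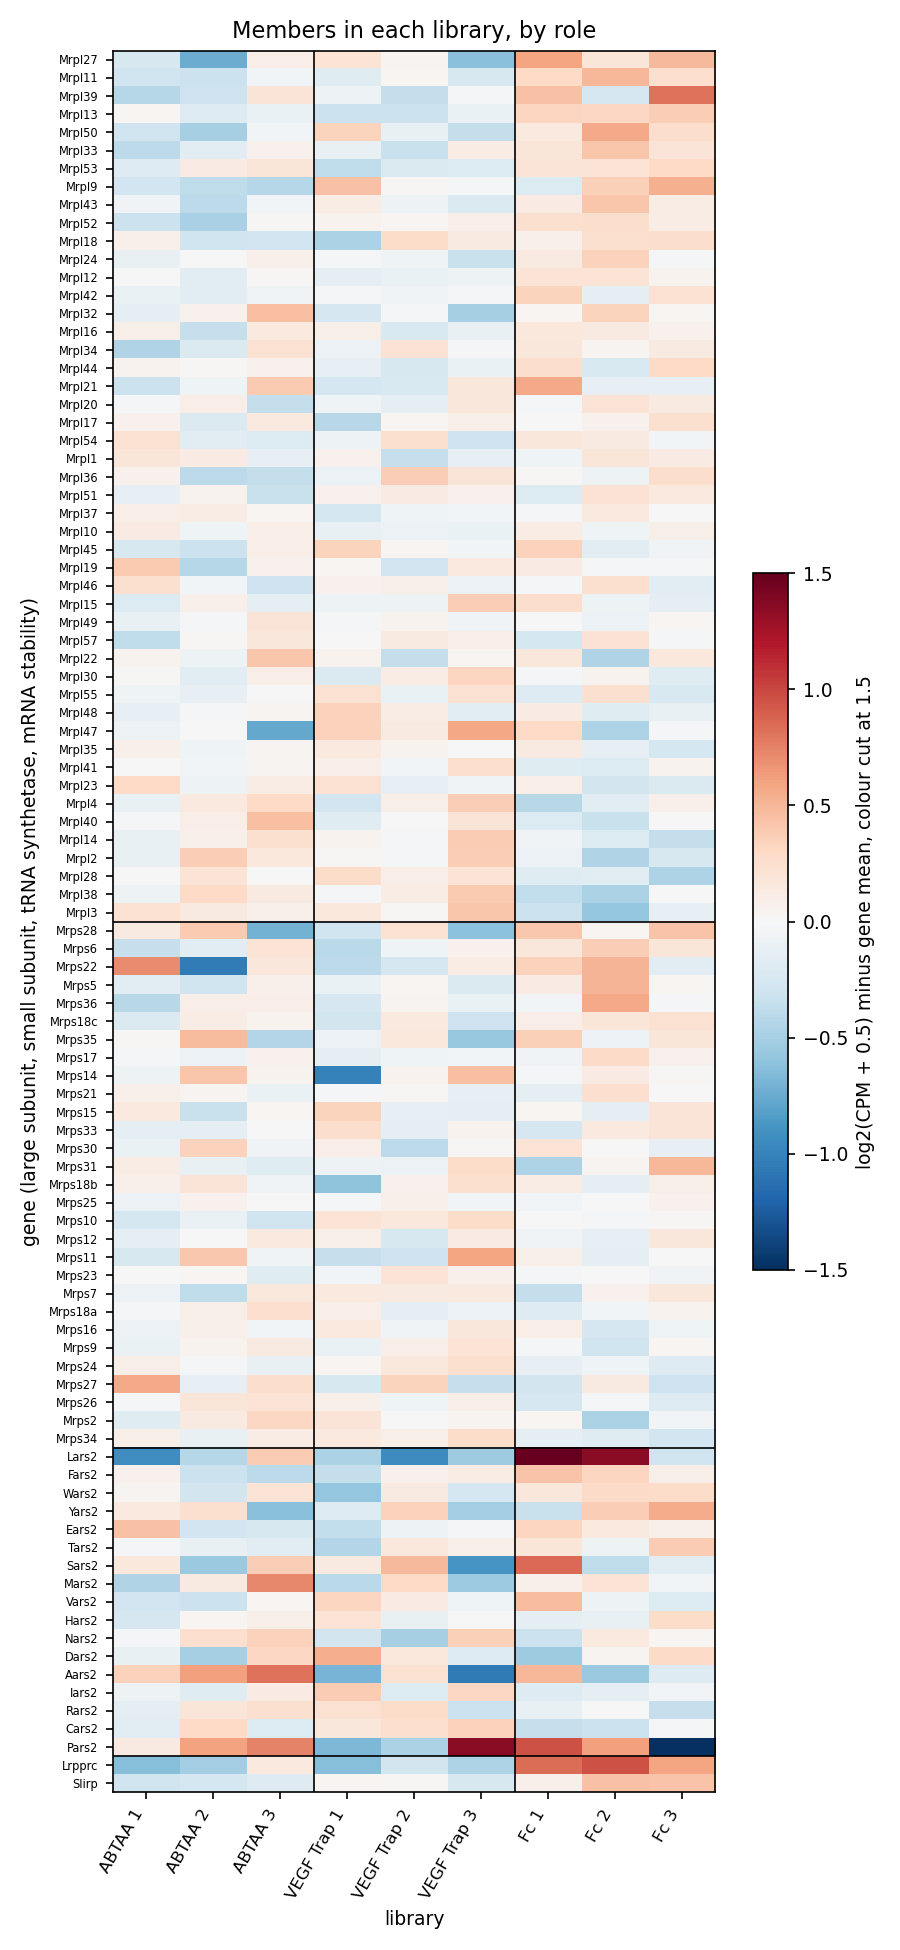
Each member (rows, grouped by role and ordered within it by the mean colour value of the treated libraries) in each library (columns); colour is log2(CPM + 0.5) minus the gene's mean over the 9 libraries, cut at 1.5 either way. Lrpprc is red in all 3 Fc libraries and Lars2 in Fc 1 and Fc 2, Pars2 is darkest blue in Fc 3 where it had 0 counts, and most ribosomal protein rows are pale.

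Counted over the set, 1 member (Lrpprc) of 96 passed an adjusted p of 0.05 in ABTAA against Fc, where 1.40% of all genes tested did (0.555% lower). In VEGF Trap against Fc, 2 members (Lrpprc and Lars2) passed, where 1.02% of genes did (0.512% lower). Since these contrasts chose the set, nothing is read from the counts. The libraries of ABTAA and Fc did not overlap for 14 members lower and 3 higher (17.7% of members, beside 23% of all genes, 11.3% lower and 11.7% higher). Those of VEGF Trap and Fc did not overlap for 18 members lower and 8 higher (27.1%, beside 20.9% of all genes, 10.5% lower and 10.4% higher). Log2 fold changes were below 0 for 59 members in ABTAA (61.5%, beside 50.4% of all genes) and 54 in VEGF Trap (56.2%, beside 49.9%). Their medians over the 96 were -0.08 in both contrasts, which share the 3 Fc libraries. Log2 changes beyond 0.5 either way were found for 9 members in ABTAA and 10 in VEGF Trap, beside 17.5% and 16.6% of all genes. As single libraries were left out, the log2 fold change of Lrpprc ran from -1.40 to -0.98 in ABTAA and from -1.38 to -1.17 in VEGF Trap. With the skeletal muscle level as a covariate, Lrpprc stood at -1.28 and -1.40. In that fit 0 of all 14054 genes passed in either contrast by edgeR (1043 and 1422 at an unadjusted p under 0.05). The muscle level did not overlap between treated and Fc libraries, so the fit cannot separate it from treatment.

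The direct contrast asks whether the reagents differ from each other in these genes. Of the 96 members, 0 passed by edgeR, by DESeq2 or by limma-voom, and of the 14054 genes tested 0% passed by edgeR and 5 genes by DESeq2. Log2 differences were below 0 for 51 members, beside 50.5% of all genes. At an unadjusted p under 0.05 there was 1 member lower and 1 higher, where 711 genes (5.06%) fell below it. Mrps10 stood at 13, 14.6 and 12.7 CPM in ABTAA and at 18.2, 17.6 and 19.1 CPM in VEGF Trap, a log2 fold change of -0.44 ± 0.16 (adjusted p = 0.943, edgeR). Its 9 counts were all multiples of 3, and its 3 prime end has a near-identical copy elsewhere. The Fc libraries lay between them at 15.7, 15.5 and 15.8 CPM. Mrpl53 stood at 42.8, 53.4 and 55.2 CPM in ABTAA and at 37.4, 41.9 and 42.1 CPM in VEGF Trap (0.32 ± 0.13, adjusted p = 0.956, edgeR). An exon of Mrpl53 overlaps Ccdc142os on the other strand, and its 3 prime end is near-identical to a stretch of Gm42688, so its count is uncertain too.

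For Lrpprc the ABTAA minus VEGF Trap difference was 0.15 ± 0.20 on the log2 scale, with a 95% interval from -0.28 to 0.57 (adjusted p = 0.971, edgeR). For Slirp it was -0.20 ± 0.15, from -0.51 to 0.12 (adjusted p = 0.964), and for Lars2 0.41 ± 0.41, from -0.46 to 1.28 (adjusted p = 0.967). The largest differences among members were 1.33 ± 0.65 for the sparsely counted Aars2 (adjusted p = 0.956), with Mars2 at 0.47 ± 0.63 (adjusted p = 0.971), and -0.63 ± 0.32 for Mrpl47 (adjusted p = 0.962), with Mrpl9 at -0.59 ± 0.31 (adjusted p = 0.962). Groups did not overlap for 6 members lower and 5 higher, which is 11.5% of members beside 9.88% of all genes (4.74% lower, 5.14% higher). The intervals of Lrpprc, Slirp and Lars2 each reach past 0.5 in size, so these libraries leave room for a difference of that size.

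Related genes outside the set were read from lists of the same machinery. These lists were drawn up with earlier results of these data known, so calls against Fc in them are descriptions. Of 17 mitochondrial translation factors, 0 passed in ABTAA and 1 rose in VEGF Trap against Fc, where 1.40% and 1.02% of all genes passed. Counts of 0 or 1 in lists of this size are near that share. That gene, Gfm2, encodes an elongation factor G relative that recycles mitochondrial ribosomes after termination. It stood at 363, 389 and 381 CPM in ABTAA and at 512, 368 and 503 CPM in VEGF Trap, against 244, 253 and 305 CPM in Fc. The log2 fold change was 0.78 ± 0.13 in VEGF Trap (adjusted p = 0.0188, edgeR) and 0.50 ± 0.13 in ABTAA (adjusted p = 0.0687). The VEGF Trap call ended without Fc 1 (0.72), Fc 2 (0.74) or VEGF Trap 3 (0.72) and with the muscle covariate (0.85). The ABTAA difference passed in DESeq2 (adjusted p = 0.00854), in limma-voom (0.0443), without a filter (0.00835), with only ABTAA and Fc fitted (0.0377) and without VEGF Trap 1 (0.0492). Exons of Gfm2 are overlapped on the other strand, so its count is uncertain where strand was not used.

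The initiation factor Mtif2, which places the first tRNA on the mitochondrial ribosome, did not pass. It stood at 48.7, 51.2 and 40.4 CPM in ABTAA and 64.3, 53.2 and 44.8 CPM in VEGF Trap, against 77.0, 63.8 and 79.3 CPM in Fc (log2 -0.65 ± 0.15, adjusted p = 0.0507, and -0.44 ± 0.15, adjusted p = 0.168, edgeR). Of 26 further genes listed for the mitochondrial ribosome, its assembly and its rRNA modification, 0 passed in ABTAA or VEGF Trap (medians -0.09 and -0.09). Ngrn, which takes part in maturation of the mitochondrial large-subunit rRNA, stood at 22.5, 23.4 and 34.7 CPM in ABTAA and 12.8, 18.7 and 16.4 CPM in VEGF Trap, against 24.5, 23.3 and 30.4 CPM in Fc (0.03 ± 0.19 and -0.71 ± 0.20, adjusted p = 0.956 and 0.0858, edgeR). Of 24 genes for mitochondrial transcription and RNA processing, 0 passed (medians -0.06 and -0.13). Of 20 cytosolic tRNA synthetases, 0 passed (medians -0.07 and -0.13), with Eprs lowest in p in ABTAA at -0.44 ± 0.11 (adjusted p = 0.0646). In ABTAA minus VEGF Trap 0 genes of these 4 lists passed.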

How the data were processed

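Libraries were made with a LEXOGEN kit for 3 prime ends, per the labels' protocols. The authors deposited 1 table of raw counts per library, by gene symbol. The submitters' processing notes name Bowtie2, edgeR and mm10; versions, annotation, counting tool, strand setting and the handling of multiple matches were not given in the sources used here.

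Symbols were filtered with filterByExpr. Scaling used TMM factors, and 1 quasi-likelihood model of 3 groups (edgeR 4.0.16, R 4.3.3, 6 residual degrees of freedom) gave the tests, with Benjamini-Hochberg adjustment over the 14054 genes kept and a threshold of 0.05. All 96 members passed the filter. Standard errors were taken from the log2 fold change and its F statistic. A floor of 3 counts was 0.209 to 0.469 CPM, and floors cover counting error only. For 7 members, as for 2058 of 14167 genes counted in every library, all counts shared a divisor above 1, so counting error is larger than they show. Replicates differed beyond counting noise (chi-square 8.12 to 19.3 per degree of freedom) and each was kept.

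The members and lists were chosen with earlier results of these data known. Named by rule were Lrpprc, Slirp, Lars2, called members, the 3 highest and 3 lowest log2 fold changes of each contrast, the Mrps18 paralogs and called pathway genes. Other genes with values were added after those were seen. One neighbouring gene is not reported here. Coordinates are GENCODE M21, which matched all 96 symbols. The last 200 bases of transcripts were compared with BLAST 2.17.0 (100 bases at 95% identity): 36 members had an exon overlapped on the other strand, 26 a near-identical 3 prime end elsewhere and 49 neither. Alternatives were DESeq2 1.42.0, limma-voom (limma 3.58.1), RLE, library totals, no filter, 10 counts in 6 libraries, only the groups compared, a replicate block, divided counts, a muscle covariate, a GC offset and omission of each library. Fits were tested on simulated data.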

Additional observations from a re-analysis of the deposited data

How the results depend on the processing

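In ABTAA against Fc, the count of 1 called member (197 of all genes) became 0 with the muscle covariate (0 of all genes), 2 in limma-voom (411), 3 in DESeq2 (750), 3 with unfiltered genes (684) and 3 with divided counts (284), and ran from 0 to 2 as single libraries were left out. It was 0 without Fc 2, ABTAA 1 or ABTAA 2, where 13, 58 and 0 of all genes were called, and 2 without Fc 3 or VEGF Trap 1. In VEGF Trap against Fc, the count of 2 (144 of all genes) became 5 in DESeq2 (651), 1 in limma-voom (242) and 0 with the muscle covariate (0), and ran from 0 to 2 without single libraries. It was 0 without Fc 2 (7 of all genes) and 1, Lrpprc, without Fc 1, ABTAA 2 or any 1 VEGF Trap library, while Lars2 stayed between -1.97 and -1.41 in those fits. In ABTAA against VEGF Trap it was 0 under every alternative run. The median over the members in VEGF Trap was -0.17 with library totals, where that of all genes was -0.08, and -0.03 with the muscle covariate, beside -0.08 as reported. The muscle level separates treated from Fc libraries, so changes with that covariate cannot be assigned to muscle or to treatment. Signs changed as follows, and the cause was not tested. In ABTAA against Fc, the muscle covariate gave -0.67 for Aars2, -0.11 for Cars2, -1.10 for Mars2 and -0.09 for Mrps18b. In VEGF Trap against Fc, Mrps18a was at -0.02 in limma-voom and with the muscle covariate, -0.06 with library totals and -0.04 with the GC offset. In ABTAA against VEGF Trap, Mrpl39 was at 0.01 with library totals. Omission of single libraries gave ranges that crossed 0 in ABTAA against Fc for Mrps18b (-0.02 to 0.12) and Mars2 (-0.31 to 0.49), and in VEGF Trap against Fc for Mrps18a (-0.05 to 0.07), Mrps18b (-0.26 to 0.14), Aars2 (-1.40 to 0.01), Mrpl9 (-0.31 to 0.06) and Mrps27 (-0.18 to 0.29). In ABTAA against VEGF Trap they did so for Lrpprc (-0.13 to 0.29) and Lars2 (-0.01 to 0.67), both below 0 without ABTAA 3, and for Mrps18b (-0.07 to 0.32), Mrpl3 (-0.14 to 0.06) and Mrpl39 (-0.26 to 0.11).

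Same-numbered libraries had correlations of deviations from 0.011 to 0.131, and other pairs from -0.100 to 0.048. Of 9 libraries, 7 correlated best with a library of their own number. The replicate numbers of the titles thus went with a weak likeness between libraries, whose source was not tested. The main fit did not use these numbers. A replicate block gave 1, 2 and 0 called members in the 3 contrasts, the same counts as without it, but raised the calls over all genes to 334, 300 and 1, against 197, 144 and 0 without it, and Gfm2 then passed in ABTAA (adjusted p = 0.0427, edgeR). Depth limits Aars2 and Mars2 most, and the 3 libraries per group limit every contrast.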
